A study of Mus musculus with 14 samples.

Results

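The acute-phase plasma protein genes described here are Saa1, Saa2, Saa3, Hp, Orm1, Cp, Fga, Fgb, Fgg and Apoh, measured by bulk RNA sequencing of whole mouse kidneys. They were chosen by symbol, and all 10 were found among the 23682 genes present in both deposited tables. All 10 passed the filter on low reads and stood among the 18810 genes tested. The 14 kidneys, each from 1 mouse, formed 3 groups, and every mouse drank doxycycline. The GSK2830371 group held 5 i-TERTci mice on doxycycline for 28 to 49 days, and the DMSO group held 5 i-TERTci mice on it for 29 to 38 days. Daily intraperitoneal injections of GSK2830371, which inhibits the phosphatase WIP1, or of its vehicle DMSO started at about day 15, when urinary protein was above 10 mg/mL. The control group held 4 Actin-rtTA+ mice at 30 days, for which no injection is recorded.

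The i-TERTci mice were heterozygous for both the actin-rtTA and the tetop-TERTci transgene, so doxycycline switched on TERTci, a catalytically inactive telomerase reverse transcriptase, in cells throughout the body and not in the kidney alone. The controls lacked the tetop-TERTci transgene. The study used the i-TERTci mice as a model of collapsing glomerulopathy, a disease with heavy proteinuria and collapse of the glomerular capillaries. Sex and age were not in the labels. By Xist and the Y-linked gene Ddx3y, GSK2830371 libraries 1 and 5 and DMSO libraries 1, 3 and 4 were Y-positive, and the other i-TERTci libraries and all 4 controls were Xist-positive. GSK2830371 libraries 2, 3 and 4 were the Xist-positive ones of that group and also the ones at 49 days, so sex and days cannot be told apart there.

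The recovered reads numbered 48.4 to 49.4 M per GSK2830371 library, 47.2 to 48.8 M per DMSO library and 48.5 to 64.6 M per control library. Mitochondrial genes took 5.07% to 8.35% of reads in the GSK2830371 libraries, 4.95% to 9.52% in the DMSO libraries and 14.45% to 24.18% in the controls. Tert, which the transgene encodes, read 231 to 2546 in the GSK2830371 group, 574 to 2732 in the DMSO group and 117 to 183 in the controls. Values are normalised reads, that is whole reads divided by the size factor of the library, and log2 changes were taken after adding 1, which understates the change of low genes. A gene is called changed at an adjusted p under 0.05 by limma's moderated test, fitted over all genes tested and adjusted by Benjamini-Hochberg.

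Acute-phase proteins are plasma proteins whose synthesis changes in inflammation or tissue injury, and the liver is their main source. IL-6 acts on hepatocytes through its receptor, gp130 and the transcription factor STAT3, while IL-1 acts through NF-kB and C/EBP factors, and both together induce serum amyloid A. Epithelial cells of other organs can express the same genes, and injured kidney tubules are known to express the fibrinogen chains, haptoglobin and lipocalin 2. In a whole kidney, a change in the number of cells that express a gene and a change in RNA per cell cannot be told apart.

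In the comparisons with control kidneys, which ask what the disease model with or without the inhibitor changes, 9 of the 10 genes rose in the GSK2830371 group and 9 of 10 in the DMSO group. Orm1 was the gene not called in either comparison. Among all genes tested, 24.3% were called higher in the GSK2830371 group (46.3% in either direction) and 25.2% in the DMSO group (48.3% in either direction). The median log2 change of the 10 genes was 4.56 in the GSK2830371 group and 5.27 in the DMSO group, against 0.01 and 0.03 over all genes tested in those comparisons. With voom weights, 5 of 10 were called with GSK2830371, without Saa1, Saa2, Saa3 and Apoh, and 7 of 10 with DMSO. The 2 comparisons share their 4 control libraries.

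Levels per kilobase of annotated exon placed the fibrinogen chains and ceruloplasmin at the top. The median over the 10 i-TERTci libraries was 11056 normalised reads per kb for Fgg, 10957 for Fga, 2573 for Cp and 1750 for Fgb. Hp had a median of 404, Apoh 369, Saa1 49.2, Saa3 17.9, Orm1 14.9 and Saa2 8.81 normalised reads per kb. Neighbours in this order overlapped over the libraries, and Fgg and Fga were almost level. The exon bases were merged over all annotated transcripts of a gene, 2478 for Saa1, 2518 for Saa2 and 9566 for Cp. The order therefore depends on that annotation, and lengths of the transcripts expressed were not measured. In the control kidneys the order was different at the top, with Fga at a median of 611, Cp at 450, Fgg at 204, Fgb at 66.1 and Hp at 34.2 normalised reads per kb, followed by Orm1 at 4.75 and Apoh at 3.20. The medians of the 3 serum amyloid A genes in the controls were 0.

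**Figure D1:**
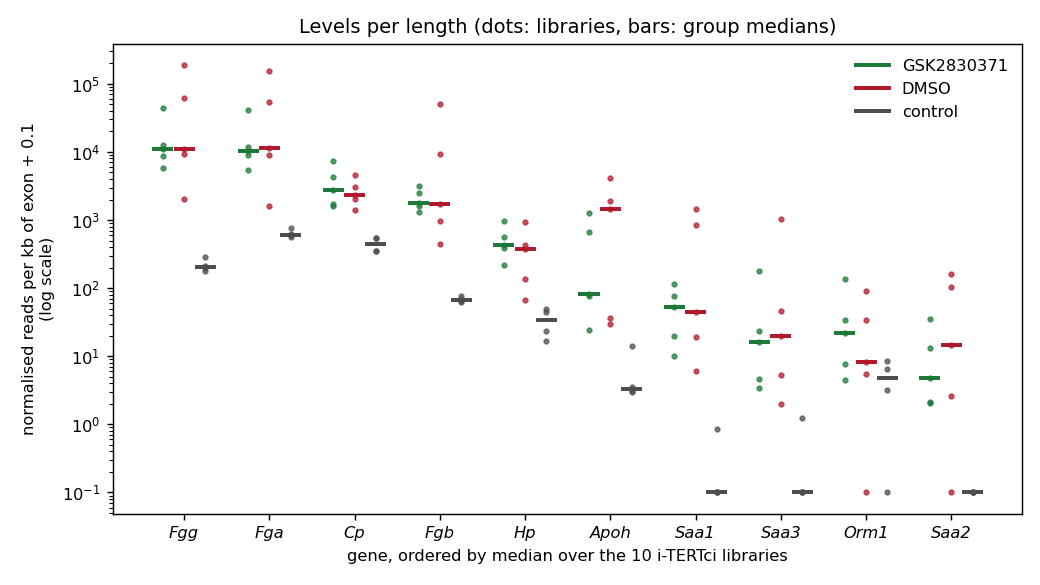
Normalised reads per kb of exon plus 0.1 (log axis) for the 10 genes, ordered by their median over the i-TERTci libraries; dots are libraries and bars are medians of the GSK2830371, DMSO and control groups. Fgg and Fga stand at the top in i-TERTci kidneys, and Saa1, Saa2 and Saa3 have control medians of 0.

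The serum amyloid A genes were counted in nearly all i-TERTci kidneys and had next to no reads in the controls. Saa1 and Saa2 encode the acute-phase apolipoproteins that travel on high-density lipoprotein and can form amyloid, and Saa3 encodes a form made largely outside the liver, for example by macrophages, adipocytes and epithelia. The genes lie within 42.3 kb of chromosome 7 (GRCm38), Saa3 at chr7:46711998-46715700 (minus strand), Saa1 at chr7:46740497-46742980 (minus strand) and Saa2 at chr7:46751790-46754313 (plus strand). Of the 50-base windows of the longest annotated Saa1 transcript, 31.7% also occur in Saa2. Reads could thus be split between this pair, and their separate levels are uncertain. That transcript is nearly as long as the gene, and the share for shorter Saa1 transcripts was not computed. Of the Saa1 windows, 0.375% occur in Saa3.

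Saa1 had 192, 282, 24.6, 48.5 and 132 normalised reads in GSK2830371 libraries 1 to 5, 3594, 112, 2119, 47.6 and 14.9 in DMSO libraries 1 to 5, and 0, 1.86, 0 and 0 in control libraries 1 to 4. Every i-TERTci library stood above every control, and DMSO libraries 1 and 3 stood far above the rest. The log2 change of Saa1 was 6.24 in the GSK2830371 group (SE 1.38, limma adjusted p = 0.0025) and 7.48 in the DMSO group (SE 1.38, adjusted p = 0.000672). The controls held 2 Saa1 reads in all, so the ratio of group levels was 254 for GSK2830371 (95% counting interval 70.2 to 2095) and 2026 for DMSO (561 to 16729), both covering counting error only.

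Saa2 had 32.7, 88.1, 4.93, 5.20 and 11.7 normalised reads in the GSK2830371 libraries, 260, 36.7, 400, 6.34 and 0 in the DMSO libraries, and 0 in all 4 controls. DMSO library 5 was level with the controls, and the same DMSO libraries 1 and 3 were the highest. Against a floor of 3 reads over the control group, Saa2 was at least 35.0-fold higher in the GSK2830371 group and at least 172-fold higher in the DMSO group. The fitted log2 change was 4.08 (SE 1.44, adjusted p = 0.0313) with GSK2830371 and 4.96 (SE 1.44, adjusted p = 0.0114) with DMSO. The GSK2830371 call was lost with edgeR's quasi-likelihood test (adjusted p = 0.051) and without GSK2830371 library 1 (limma adjusted p = 0.0646) or 2 (0.0737) or control library 1 (0.0548), 2 (0.0635) or 4 (0.059). It was also lost with a pseudocount of 4 (2.41, adjusted p = 0.108), with voom weights (4.92, adjusted p = 0.0914), at 31 days or fewer (4.37, adjusted p = 0.0997) and with Xist as a covariate (3.21, adjusted p = 0.0918). The DMSO call was lost with voom weights (5.51, adjusted p = 0.0551), in Xist-positive libraries (2.63, adjusted p = 0.173) and with Xist as a covariate (3.64, adjusted p = 0.083).

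Saa3 had 41.7, 8.71, 60.1, 468 and 11.7 normalised reads in the GSK2830371 libraries, 118, 13.8, 2719, 51.8 and 4.97 in the DMSO libraries, and 0, 0, 3.01 and 0 in the controls. All i-TERTci libraries were above all controls, but the highest were now DMSO library 3 and GSK2830371 library 4. Its log2 change was 4.93 in the GSK2830371 group (SE 1.52, adjusted p = 0.0168) and 5.60 in the DMSO group (SE 1.52, adjusted p = 0.00809). With 3 control reads in all, the ratio of group levels was 160 (54.7 to 775) for GSK2830371 and 769 (263 to 3731) for DMSO. The GSK2830371 call was lost with a pseudocount of 4 (3.41, adjusted p = 0.0633), with voom weights (5.64, adjusted p = 0.0776), at 31 days or fewer (4.04, adjusted p = 0.142) and with Xist as a covariate (4.27, adjusted p = 0.052). The DMSO call was lost in Xist-positive libraries (2.75, adjusted p = 0.121) and with Xist as a covariate (4.61, adjusted p = 0.0563).

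The starts of Saa1 and Saa2 are shown because these neighbouring genes, on opposite strands, each had the other as its nearest gene, of all genes tested, in profile over the i-TERTci libraries. Each window runs from 250 bases before to 50 bases after the RefSeq start (RefSeq, GRCm38.p6). It was searched on both strands for C/EBP (TTNNGNAA), STAT (TTCNNNGAA), an IL-6 response element (CTGGGAA) and an NF-kB motif, and capitals mark each match. Some of these motifs can overlap in their letters, and no matches overlapped in the windows printed. Of 32851 promoter windows of the same length, 40.7% hold the C/EBP letters, 8.30% the STAT letters, 11.1% the IL-6 response element and 1.63% the NF-kB motif.
Saa1 (chr7:46742931-46743230, minus strand): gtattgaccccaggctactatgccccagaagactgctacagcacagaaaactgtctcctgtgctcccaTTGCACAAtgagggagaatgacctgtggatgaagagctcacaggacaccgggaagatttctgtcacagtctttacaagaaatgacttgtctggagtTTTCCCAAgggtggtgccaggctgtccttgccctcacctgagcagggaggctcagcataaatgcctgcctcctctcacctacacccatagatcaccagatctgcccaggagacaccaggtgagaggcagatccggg
Saa2 (chr7:46751583-46751882, plus strand): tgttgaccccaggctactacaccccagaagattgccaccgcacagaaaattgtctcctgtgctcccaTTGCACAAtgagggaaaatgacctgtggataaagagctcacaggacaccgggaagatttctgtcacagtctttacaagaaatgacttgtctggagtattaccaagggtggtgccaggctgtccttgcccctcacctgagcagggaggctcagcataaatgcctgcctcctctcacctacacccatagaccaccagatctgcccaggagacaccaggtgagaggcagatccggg
The windows are identical at 287 of 299 aligned bases (96.0%). Both hold a C/EBP match, 182 bases before the Saa1 start and 183 bases before the Saa2 start, and Saa1 has another at 86 bases. The NF-kB motif was in no window of these genes. A match describes the letters only.

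Haptoglobin, orosomucoid and ceruloplasmin moved by different amounts. Hp encodes haptoglobin, which binds free haemoglobin, Orm1 encodes the alpha-1-acid glycoprotein orosomucoid, a carrier of drugs and lipids, and Cp encodes ceruloplasmin, a copper-binding ferroxidase. They lie at chr8:109575128-109579172 (minus strand), chr4:63344560-63348163 (plus strand) and chr3:19957054-20009145 (plus strand).

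Hp had 911, 345, 684, 1541 and 613 normalised reads in the GSK2830371 libraries, 689, 215, 1512, 593 and 107 in the DMSO libraries, and 78.1, 26.9, 72.2 and 37.7 in the controls. Each i-TERTci library was above each control, and DMSO library 5 came nearest to them. The log2 change was 3.86 with GSK2830371 (SE 0.65, adjusted p = 0.00031) and 3.10 with DMSO (SE 0.65, adjusted p = 0.00138). Among Xist-positive libraries alone, where DMSO has 2 libraries, its DMSO change was 1.62 (adjusted p = 0.0614).

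Cp had 26578, 70068, 16584, 15536 and 40481 normalised reads in the GSK2830371 libraries, 19177, 43789, 28843, 13188 and 22653 in the DMSO libraries, and 5235, 3363, 5263 and 3374 in the controls. No i-TERTci library overlapped the controls, and the i-TERTci libraries spanned 5.31-fold, against 14.4-fold for Hp. The log2 change was 2.77 with GSK2830371 (SE 0.42, adjusted p = 0.000116) and 2.49 with DMSO (SE 0.42, adjusted p = 0.000242). The minus-strand gene Hps3 overlaps Cp. It read 1224 to 1987 in the GSK2830371 libraries, 1449 to 2312 in the DMSO libraries and 1086 to 1503 in the controls. Hps3 was below Cp in every group, and nearest to it in the controls. The strand setting is not given, so reads where Cp and Hps3 overlap cannot be told apart.

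Orm1 had 25.9, 5.81, 16.8, 106 and 3.34 normalised reads in the GSK2830371 libraries, 26.6, 0, 70.4, 6.34 and 4.14 in the DMSO libraries, and 6.60, 0, 5.01 and 2.35 in the controls. Both i-TERTci groups overlapped the controls. Its log2 change of 2.29 with GSK2830371 (SE 1.14, adjusted p = 0.112) and of 1.42 with DMSO (SE 1.14, adjusted p = 0.317) did not pass the test. Of the 50-base windows of Orm1, 20.4% also occur in Orm2, so its low counts are further uncertain. DESeq2 gave the GSK2830371 change as 3.17 with an adjusted p of 0.017.

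Fgg and Fga had the highest levels per length of the 10 genes in i-TERTci kidneys, and all 3 fibrinogen chains rose. Fibrinogen, the precursor of fibrin, is assembled from A-alpha, B-beta and gamma chains, encoded by Fga, Fgb and Fgg within 42.1 kb of chromosome 3. Fgg lies at chr3:83007724-83015049 (plus strand), Fga at chr3:83026076-83033627 (plus strand) and Fgb at chr3:83040141-83049863 (minus strand). The windows at their starts are shown because the fibrinogen genes form 1 cluster, with capitals as above.
Fga (chr3:83025903-83026202, plus strand): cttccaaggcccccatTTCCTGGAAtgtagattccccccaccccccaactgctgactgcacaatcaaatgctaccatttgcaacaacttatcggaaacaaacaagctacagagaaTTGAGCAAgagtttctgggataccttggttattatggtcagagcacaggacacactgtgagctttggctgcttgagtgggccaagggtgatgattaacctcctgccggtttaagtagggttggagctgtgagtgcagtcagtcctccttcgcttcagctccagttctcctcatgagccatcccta
Fgb (chr3:83049814-83050113, minus strand): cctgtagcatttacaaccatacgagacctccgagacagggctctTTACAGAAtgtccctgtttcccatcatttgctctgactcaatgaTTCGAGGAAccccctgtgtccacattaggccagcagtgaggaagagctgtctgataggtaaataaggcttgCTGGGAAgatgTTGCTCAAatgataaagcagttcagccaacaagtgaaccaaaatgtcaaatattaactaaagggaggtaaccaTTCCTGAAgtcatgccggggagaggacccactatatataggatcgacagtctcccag
Fgg (chr3:83007474-83007773, plus strand): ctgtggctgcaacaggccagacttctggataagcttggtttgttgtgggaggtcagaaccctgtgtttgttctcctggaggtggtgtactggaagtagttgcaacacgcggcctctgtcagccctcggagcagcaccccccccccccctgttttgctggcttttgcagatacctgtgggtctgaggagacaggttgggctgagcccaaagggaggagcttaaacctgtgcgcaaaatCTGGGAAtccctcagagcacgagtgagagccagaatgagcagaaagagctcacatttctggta
The IL-6 response element letters lie 91 bases before the start of Fgb and 13 bases before that of Fgg, and Fga holds none. STAT letters lie 234 bases before the Fga start and 162 bases before the Fgb start. Fga has 1 C/EBP match and Fgb 3, of which the one at 80 bases stands close to its IL-6 response element. An HNF1 motif (GTTAAT, in 7.10% of windows), not in capitals, is 43 bases before the Fga start and 29 bases before the Fgb start. The Fga window starts from a RefSeq position 77 bases downstream of the GENCODE gene start.

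Fga had 125196, 36021, 26873, 16461 and 31103 normalised reads in the GSK2830371 libraries, 471018, 26794, 160277, 34857 and 4894 in the DMSO libraries, and 1710, 2276, 1887 and 1793 in the controls. All i-TERTci libraries were above all controls, from DMSO library 5, which was close to them, up to DMSO library 1. The log2 change of Fga was 4.25 with GSK2830371 (SE 1.01, adjusted p = 0.00405) and 4.74 with DMSO (SE 1.01, adjusted p = 0.00185).

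Fgb had 12218, 9431, 6768, 5059 and 6075 normalised reads in the GSK2830371 libraries, 194627, 6569, 36062, 3652 and 1718 in the DMSO libraries, and 234, 290, 244 and 260 in the controls. The groups with the transgene again did not overlap the controls, and DMSO libraries 1 and 3 stood apart from the other 8. Its log2 change was 4.87 with GSK2830371 (SE 1.02, adjusted p = 0.00185) and 5.59 with DMSO (SE 1.02, adjusted p = 0.000656).

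Fgg had 91428, 26756, 18121, 12322 and 23387 normalised reads in the GSK2830371 libraries, 390572, 19789, 129097, 22893 and 4271 in the DMSO libraries, and 377, 609, 437 and 417 in the controls. The order of the libraries was close to that of Fga, with DMSO library 1 highest and DMSO library 5 lowest. The log2 change of Fgg, 5.86 with GSK2830371 (SE 1.02, adjusted p = 0.000494) and 6.45 with DMSO (SE 1.02, adjusted p = 0.000222), was the largest of the 3 chains in both comparisons. The minus-strand lincRNA Gm30097 overlaps Fgg and read 100 to 593 in the GSK2830371 libraries, 108 to 2282 in the DMSO libraries and 20 to 36.1 in the controls. Since the strand setting is not given, reads of this pair cannot be told apart.

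Together the 3 chains took 0.419%, 0.151%, 0.107%, 0.0791% and 0.148% of all reads in the GSK2830371 libraries. They took 1.83%, 0.119%, 0.744%, 0.12% and 0.0273% in the DMSO libraries, and 0.00356% to 0.0053% in the controls. The share of fibrinogen reads was thus higher in the lowest i-TERTci library than in any control.

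The balance between the chains differed as well. Per kilobase, Fga made up 43.1% to 47.0% of fibrinogen reads in the GSK2830371 group, 39.5% to 49.3% in the DMSO group and 67.3% to 70.2% in the controls. Fgg made up 44.7% to 49.4% in the GSK2830371 group, 46.6% to 49.6% in the DMSO group and 22.3% to 25.9% in the controls. Fgb made up 3.62% to 10.5% with GSK2830371, 4.08% to 13% with DMSO and 6.79% to 7.91% in the controls. The Fga and Fgg shares did not overlap between i-TERTci and control libraries, while the Fgb shares did. The size of each share depends on the merged exon length described above.

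The log2 ratio of Fgg to Fga reads averaged -0.46 ± 0.06 in the GSK2830371 group (SD, n = 5), -0.36 ± 0.16 in the DMSO group (SD, n = 5) and -2.07 ± 0.12 in the controls (SD, n = 4). It was higher than in controls by 1.62 with GSK2830371 and by 1.71 with DMSO. Each difference had an exact permutation p of 0.00794 (two-sided), the smallest that the design allows, and 0.0238 after Benjamini-Hochberg adjustment over 6 tests. The GSK2830371 group differed from the DMSO group by -0.09 (exact permutation p = 0.302, adjusted 0.362). For Fgb over Fga the differences were 0.63 with GSK2830371 (exact permutation p = 0.0952) and 0.85 with DMSO (exact permutation p = 0.0873), each 0.143 after adjustment, and -0.22 between the treatments (exact permutation p = 0.595). With 1 library left out, some of these unadjusted values passed 0.05. Fgb over Fga differed from controls by 0.9 without GSK2830371 library 1 and by 1.15 without DMSO library 4 (exact permutation p = 0.0286 each), and Fgg over Fga differed between the treatments by -0.15 without DMSO library 4 (exact permutation p = 0.0317). In Xist-positive libraries the Fgb over Fga difference with GSK2830371 was 1.02, and at 31 days or fewer that with DMSO was 1.15 (exact permutation p = 0.0286 each). The Fgg over Fga differences from control missed 0.05 at 31 days or fewer with GSK2830371 and in Xist-positive libraries with DMSO (1.64 and 1.76, exact permutation p = 0.0667 each), where 2 libraries of the group remained. These ratio tests were added after the values had been seen.

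**Figure D2:**
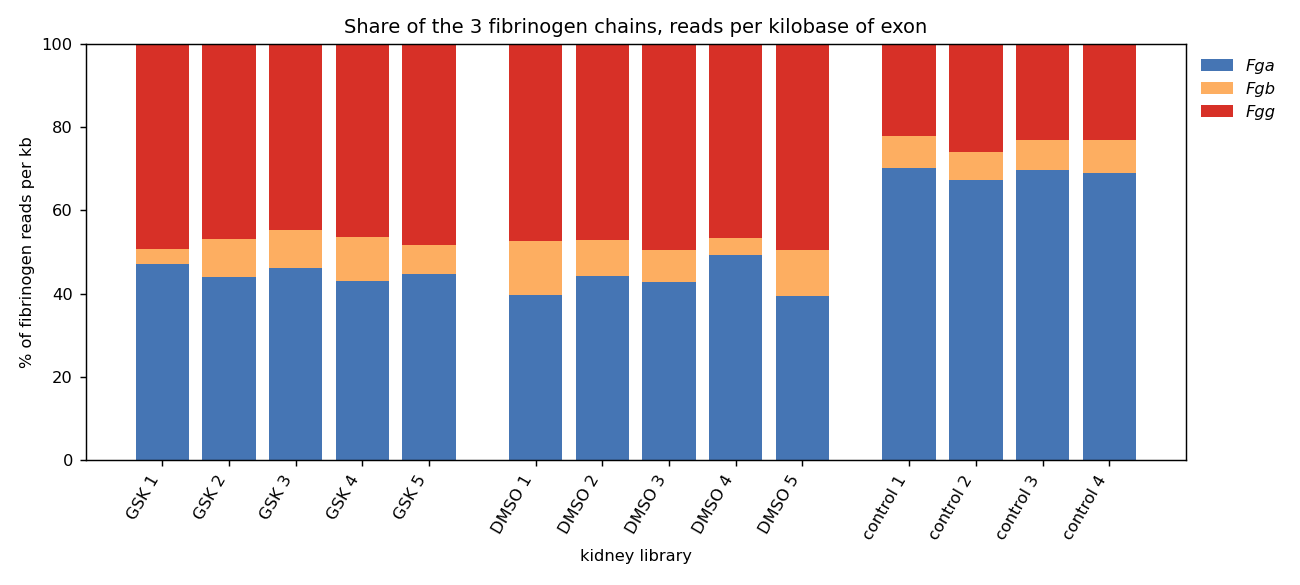
Share of the Fga, Fgb and Fgg chains in fibrinogen reads per kb of exon (percent), 1 bar per library, with the GSK2830371, DMSO and control groups from left to right. Fga holds 67.3% to 70.2% in the controls and at most 49.3% in any i-TERTci library.

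Apoh was split into high and low libraries within both i-TERTci groups. Apoh encodes apolipoprotein H (beta-2-glycoprotein I), a phospholipid-binding plasma protein and the main antigen of antiphospholipid antibodies, and it lies at chr11:108343354-108414396 (plus strand). The Apoh window is shown because this gene parted the libraries by sex marker. It is taken at a RefSeq start 51943 bases downstream of the GENCODE gene start.
Apoh (chr11:108395047-108395346, plus strand): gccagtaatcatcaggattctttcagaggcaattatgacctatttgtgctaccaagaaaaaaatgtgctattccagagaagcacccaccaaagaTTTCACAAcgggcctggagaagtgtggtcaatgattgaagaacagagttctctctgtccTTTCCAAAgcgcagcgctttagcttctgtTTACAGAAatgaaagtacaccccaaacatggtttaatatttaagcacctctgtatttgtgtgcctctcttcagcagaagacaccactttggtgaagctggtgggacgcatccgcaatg
The window holds C/EBP letters 156, 97 and 68 bases before the start, and no match to the other motifs.

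Apoh had 2048, 132, 122, 38.1 and 1046 normalised reads in the GSK2830371 libraries, 6606, 46.8, 2985, 2317 and 57.1 in the DMSO libraries, and 5.5, 4.64, 22.1 and 4.71 in the controls. GSK2830371 libraries 1 and 5 and DMSO libraries 1, 3 and 4 were high, and the other i-TERTci libraries were closer to the controls without overlapping them. Its log2 change was 5.0 with GSK2830371 (SE 1.54, adjusted p = 0.0174) and 6.31 with DMSO (SE 1.54, adjusted p = 0.00452). Prkca, which overlaps Apoh on the minus strand, read 1185 to 1474 in the GSK2830371 libraries, 1000 to 1529 in the DMSO libraries and 1037 to 1489 in the controls. In the controls Prkca was thus far above Apoh, and reads where they overlap cannot be told apart without the strand setting.

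The 5 high Apoh libraries were the 5 Y-positive ones. Y-positive i-TERTci libraries had 1046 to 6606 normalised Apoh reads (median 2317) and Xist-positive ones 38.1 to 132 (median 57.1). In a fit with the sex marker beside the group, added after the values had been seen, Apoh was higher in Y-positive libraries by 5.09 on the log2 scale (SE 0.53, limma adjusted p = 0.000189), higher in 5 of 5 libraries. It was the only one of the 10 genes called, where 0.191% of all genes tested were called higher and 0.340% in either direction. Across all genes, 0.696% had every Y-positive i-TERTci library above every Xist-positive one. With the sex marker in the fit, the log2 change of Apoh against control was 2.97 with GSK2830371 (adjusted p = 0.00141) and 3.26 with DMSO (adjusted p = 0.00149), and GSK2830371 differed from DMSO by -0.29 (adjusted p = 0.998). The controls were all Xist-positive, so sex was compared within the i-TERTci groups alone.

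Of the other genes, Fga was 2.45 higher in Y-positive libraries (SE 0.74, adjusted p = 0.29), Fgg 2.43 (SE 0.75, adjusted p = 0.31), Saa1 2.63 (SE 1.16, adjusted p = 0.452) and Hp 1.27 (SE 0.54, adjusted p = 0.431). With Apoh, these were the 5 members with an unadjusted p under 0.05, which 10.6% of all genes reached. Cp differed by -0.19 (SE 0.41, adjusted p = 0.898), with a direction that turned without GSK2830371 library 2 (0.09) or DMSO library 2 (0.11). With the sex marker in the fit, Fga remained called, at 3.27 with GSK2830371 (adjusted p = 0.00756) and 3.27 with DMSO (adjusted p = 0.0127), against 4.25 and 4.74 without it. With DESeq2, Fga (2.69, adjusted p = 0.0184) and Fgg (2.75, adjusted p = 0.0182) were called too. Of 10 proximal tubule markers, 3 were called higher in Y-positive libraries, Slc7a13, Kap and Cyp2e1 (log2 differences 6.92, 3.67 and 2.44). The summed level of the 10 was 286914 to 1445025 in Y-positive i-TERTci libraries, 103673 to 384693 in Xist-positive ones and 1342915 to 2119245 in the controls. Kap alone read 456984 in GSK2830371 library 1, 1010221 in DMSO library 1 and 1089050 in DMSO library 4. It made up most of the sum in each of these, so the sum does not describe the other markers. The part of the proximal tubule markers in the result was not tested.

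**Figure D3:**
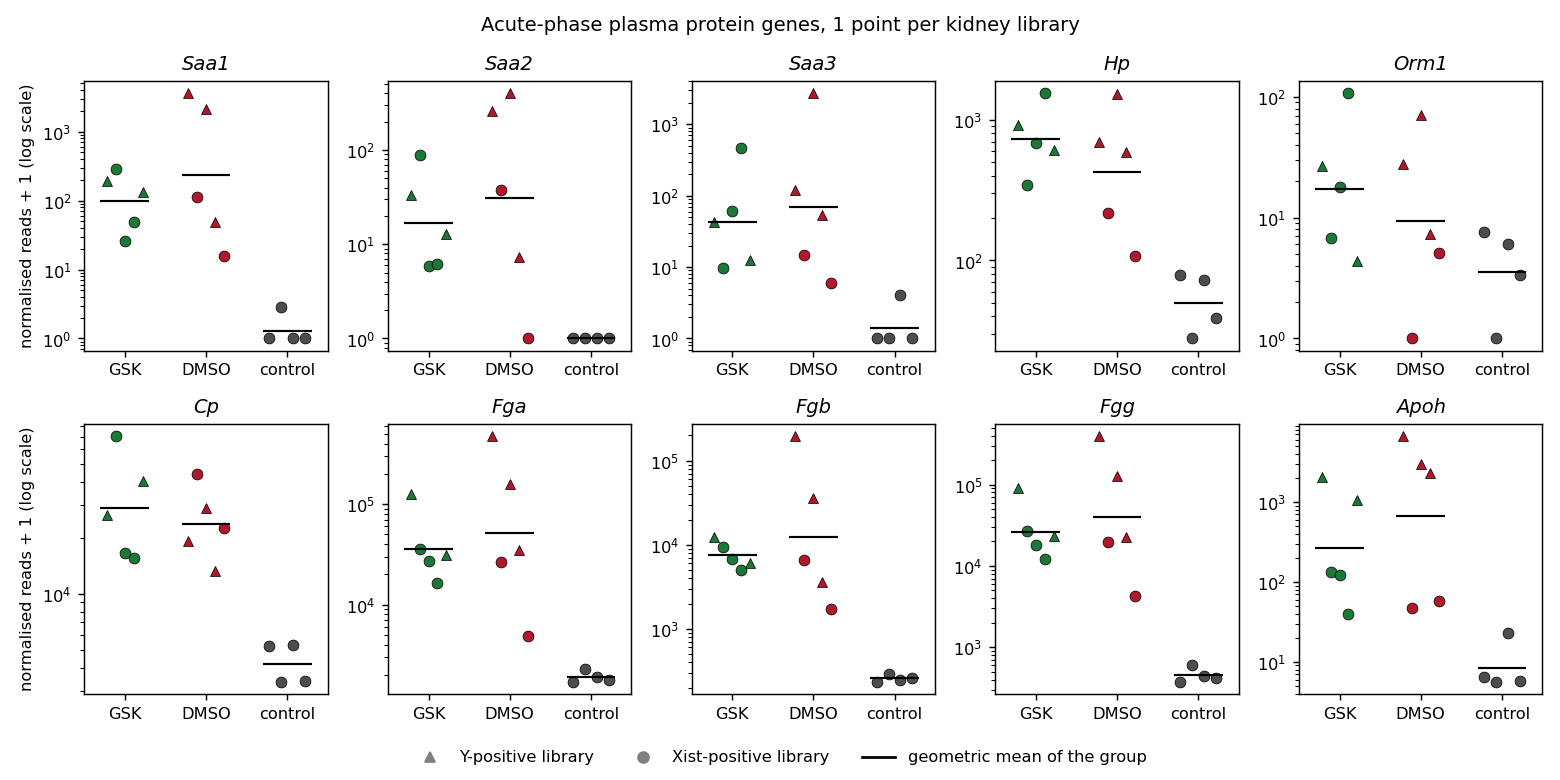
Normalised reads plus 1 (log axis) of each gene in every kidney, in the GSK2830371, DMSO and control groups from left to right; triangles are Y-positive and circles Xist-positive libraries, and bars are geometric means. In Apoh the triangles, 1046 to 6606 normalised reads, sit above all circles, of which the highest i-TERTci value is 132.

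Counts of members without overlap were close in both comparisons. In the GSK2830371 group, 9 of 10 genes had every library above every control, as did 20.8% of all genes tested. In the DMSO group it was 8 of 10, against 20.0% of all genes, with Saa2 and Orm1 overlapping.

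The comparison of GSK2830371 with DMSO asks what WIP1 inhibition changes in the diseased kidney, and none of the 10 genes was called. Their limma adjusted p was 0.994 in each case, and none reached an unadjusted p under 0.05, which 4.25% of all genes reached. Among all genes tested, 0% were called by limma, 0 genes by edgeR and 1 by DESeq2. The log2 differences, GSK2830371 over DMSO, were negative in 7 genes and positive in 3, with a median of -0.63, against -0.01 over all genes.

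The intervals of these differences were wide. Saa1 differed by -1.24 (95% interval -4.03 to 1.56), Saa2 by -0.87 (-3.78 to 2.03) and Saa3 by -0.67 (-3.74 to 2.41). The fibrinogen chains differed by -0.50 for Fga (-2.55 to 1.56), -0.72 for Fgb (-2.80 to 1.36) and -0.59 for Fgg (-2.65 to 1.47). Apoh differed by -1.31 (-4.44 to 1.83), Hp by 0.76 (-0.54 to 2.07), Orm1 by 0.87 (-1.42 to 3.15) and Cp by 0.28 (-0.55 to 1.12). All 10 intervals included 0, and that of Cp was the narrowest.

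The means and medians of the treated groups stood apart in size. Fga averaged 47131 ± 44231 normalised reads with GSK2830371 and 139568 ± 195005 with DMSO (SD, n = 5 each), with medians of 31103 and 34857. Without DMSO library 1 the log2 difference changed sign, to 0.31 for Fga, 0.28 for Fgb and 0.24 for Fgg. Without DMSO library 3 it changed sign to 0.05 for Saa2 and 0.66 for Saa3, and without GSK2830371 library 2 to -0.04 for Cp. With 1 library left out, the difference ran from -2.2 to -0.25 for Saa1, -2.26 to -0.48 for Apoh, 0.27 to 1.22 for Hp and 0.06 to 1.6 for Orm1. Among Xist-positive libraries alone (n = 3 and 2), the differences were 1.15 for Fga, 1.04 for Fgb, 0.99 for Fgg, 0.76 for Saa1 and 0.72 for Apoh. There the GSK2830371 libraries were all at 49 days and the DMSO libraries at 29 and 31 days, so treatment and days cannot be told apart.

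**Figure D4:**
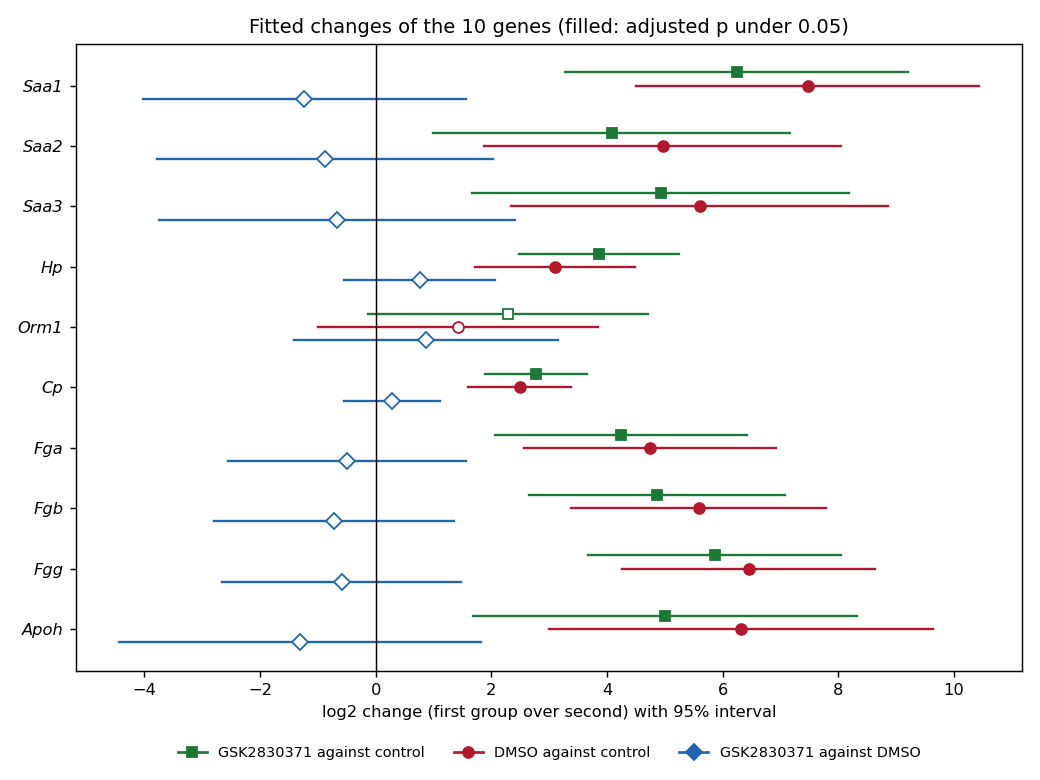
Fitted log2 changes (x axis, first group over second) with 95% intervals for each gene, with GSK2830371 against control as squares, DMSO against control as circles and GSK2830371 against DMSO as diamonds; filled symbols have an adjusted p under 0.05. In the comparisons with control 9 of 10 genes are filled, and in the comparison of the treatments none is.

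Variation between mice of the same genotype was large. Over the 10 i-TERTci libraries the highest value was 547 times the lowest for Saa3, 241 times for Saa1, 173 times for Apoh, 113 times for Fgb, 96.2 times for Fga and 91.4 times for Fgg. DMSO library 1 was the highest for Saa1, Fga, Fgb, Fgg and Apoh, and DMSO library 3 for Saa2 and Saa3. GSK2830371 library 4 was the highest for Hp and Orm1, and GSK2830371 library 2 for Cp. DMSO library 5 was the lowest for 7 genes, the 3 serum amyloid A genes, Hp and the 3 fibrinogen chains.

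The genes did not share 1 profile over these libraries. Likeness was measured as the root mean square difference between log2 values centred on their own means over the 10 i-TERTci libraries, which share size factors, sex and days, and no test was made of it. Fga and Fgg each had the other as the nearest of all genes tested, at 0.12, and Lrg1, a leucine-rich glycoprotein of plasma, came next at 0.53 from Fga and 0.54 from Fgg. The nearest to Fgb were Fgg at 0.58 and Fga at 0.65. Saa1 and Saa2 each had the other as the nearest, at 0.79, and after Gm12240 (0.95) the genes nearest to Saa1 were Fgb, Fgg and Fga (1.01, 1.07 and 1.15). The second nearest to Saa2 was the oestrogen sulfotransferase gene Sult1e1 (1.29).

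Saa3 did not follow Saa1 (2.55), and its nearest genes were Camk2b, a calmodulin kinase subunit (1.40), and Orm1 (1.49). Those of Orm1 were Prg4, which encodes lubricin (1.17), and the cytochrome P450 gene Cyp4f15 (1.2), with Hp as the third (1.21). The nearest to Hp were the low-count genes Gm30173 (0.72) and Gm15564 (0.73). Cp lay nearest to the class I histocompatibility gene H2-K1 (0.22) and to Rab3d, a small GTPase of secretory vesicles (0.23). Nearest to Apoh were Gm44785 (0.84) and Gm29650 (0.96). Of the other members, Fga came nearest to Apoh at place 28 (1.61) and Fgg at place 31 (1.62).

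**Figure D5:**
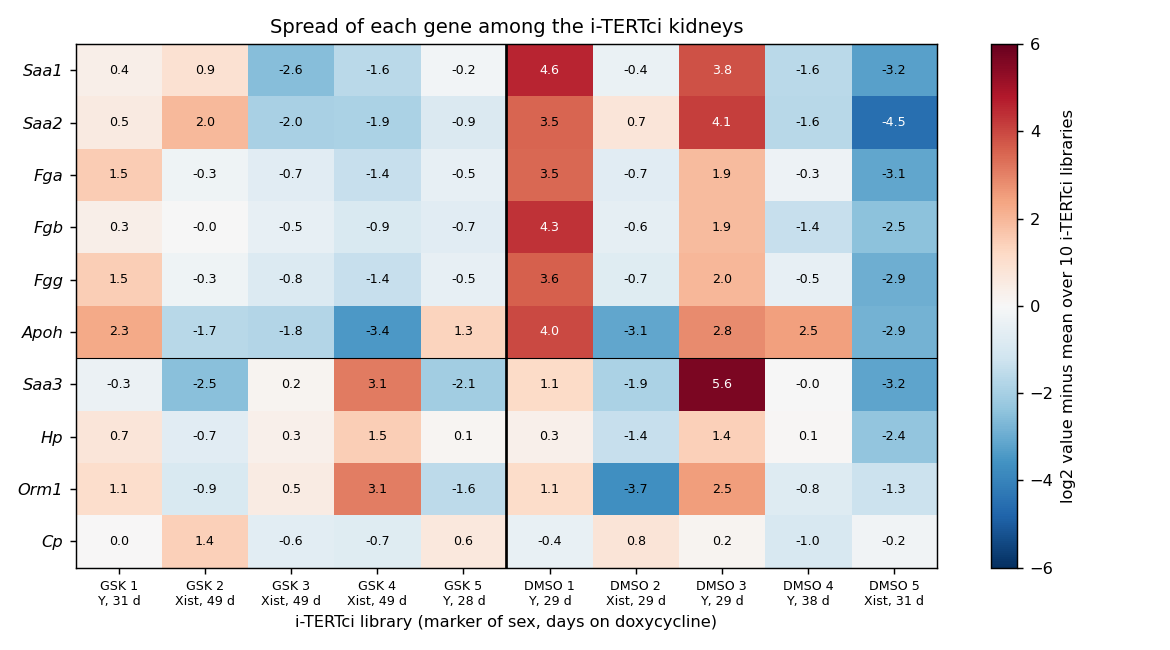
Log2 value of each gene minus its mean over the 10 i-TERTci libraries (colour and number), with GSK2830371 libraries left of DMSO libraries and the sex marker and days on doxycycline under each. The Saa1, Saa2 and fibrinogen rows are highest in DMSO libraries 1 and 3 and lowest in DMSO library 5, while Cp is highest in GSK2830371 library 2.

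The lists of related genes that follow are given as counts, beside the share of all genes tested that was called. That share was 24.3% higher and 22.1% lower with GSK2830371 against control, and 25.2% higher and 23.1% lower with DMSO. Of 23 tested genes of IL-6 and IL-1 signalling, 11 rose and 0 fell with GSK2830371 (median log2 change 0.58), and 15 rose and 0 fell with DMSO (median 0.95). Socs3, the feedback inhibitor of gp130 signalling, had the smallest p with GSK2830371 (3.01, SE 0.56, adjusted p = 0.000712). Il1rn, the IL-1 receptor antagonist, had it with DMSO (3.29, SE 0.50, adjusted p = 9.98e-05). Chosen after its values were seen, Il6 was 75.0 in DMSO library 1 and 308 in DMSO library 4, at most 8.66 in the other i-TERTci libraries and 0 in the controls. Socs3 and Stat3, again named after their values were seen, read 3019 and 18309 in GSK2830371 library 1, the third highest in fibrinogen. They read 7909 and 26936 in DMSO library 1, the highest in fibrinogen, 2389 and 10646 in DMSO library 3, the second highest, and 2406 and 16604 in DMSO library 4. Socs3 read 949, 1029, 928 and 1103 in GSK2830371 libraries 2 to 5 and 1366 in DMSO library 2. Stat3 read 11541, 8588, 7524 and 11204 in GSK2830371 libraries 2 to 5 and 9088 in DMSO library 2. In GSK2830371 libraries 2 and 5 Stat3 was thus above DMSO library 3, although fibrinogen was lower. The order of Socs3 and of Stat3 differed from that of fibrinogen over these libraries. DMSO library 5, the lowest in fibrinogen, also had the lowest Socs3 (615) and Stat3 (6466) of the i-TERTci libraries. A link between these genes and fibrinogen was not tested.

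Other acute-phase genes moved in the same comparisons. Of 24 other positive acute-phase genes tested, 12 rose and 0 fell with GSK2830371 (median 1.59), and 14 rose and 0 fell with DMSO (median 1.98). Lcn2, the siderophore-binding lipocalin 2, led both, at 6.76 with GSK2830371 (SE 0.70, adjusted p = 9.39e-06) and 6.50 with DMSO (SE 0.70, adjusted p = 1.23e-05). Of 10 negative acute-phase genes, 4 rose and 2 fell with GSK2830371 (median 0.64), and 2 rose and 2 fell with DMSO (median 0.55). Serpina6, the corticosteroid-binding globulin, had the smallest p there, at -7.77 with GSK2830371 (SE 1.11, adjusted p = 0.000118) and -9.39 with DMSO (SE 1.11, adjusted p = 2.59e-05).

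Partners of the encoded proteins gave different counts. Of 21 genes of fibrin formation and breakdown, 11 rose and 0 fell with GSK2830371 (median 1.02) and 13 rose and 0 fell with DMSO (median 1.18). Serpine2, an inhibitor of thrombin, changed by 2.03 with GSK2830371 (SE 0.15, adjusted p = 1.75e-07) and by 1.51 with DMSO (SE 0.15, adjusted p = 2.47e-06). Of 8 serum amyloid A receptors, 4 rose with GSK2830371 (median 1.29) and 5 with DMSO (median 1.56), led by Tlr4 at 2.04 with GSK2830371 and 1.99 with DMSO (adjusted p = 1.66e-05 and 1.9e-05). Of 12 haptoglobin and ceruloplasmin partners, 4 rose and 2 fell in both comparisons (medians -0.09 with GSK2830371 and 0.45 with DMSO), led by the copper pump Atp7a at 1.61 with GSK2830371 and 1.49 with DMSO (adjusted p = 0.000131 and 0.00022). Of 7 genes of apolipoprotein H binding and uptake, 2 rose and 1 fell in both (medians 0.03 with GSK2830371 and 0.29 with DMSO), led by Anxa2 at 1.56 with GSK2830371 and 1.64 with DMSO (adjusted p = 0.000877 and 0.00055). The counts that rose in these last lists, 4 of 12 and 2 of 7, were close to the shares over all genes, 24.3% with GSK2830371 and 25.2% with DMSO. No gene of these lists was called between GSK2830371 and DMSO.

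Markers of hepatocytes, the usual source of these proteins, gave mixed values. Of 14 tested hepatocyte markers, 4 were called higher with GSK2830371 and 5 with DMSO, and the summed level was 40414 to 76339 with GSK2830371, 33740 to 150767 with DMSO and 10087 to 13684 in controls. Those counts stand beside 24.3% and 25.2% of all genes called higher, so they were not far from the background. Apob, which led the list (2.43 with GSK2830371 and 2.5 with DMSO, adjusted p = 5.63e-05 and 3.98e-05), and Cyp2e1 made up most of that sum. Cyp2e1 is also among the proximal tubule markers used here, and it read 4098 to 6094 in the controls. Alb, which encodes albumin, read 61.0 to 501 in the GSK2830371 libraries, 76.9 to 431 in the DMSO libraries and 185 to 2025 in the controls. The urea cycle gene Cps1 was at 0 in 4 of 5 GSK2830371 libraries and in all 5 DMSO libraries, and reached 10.0 in the controls. Other markers of the list went the other way, and 0 were called lower in either comparison. Control medians of Ttr, Itih4 and Apoc3 were 34.5, 15.5 and 785, against 185, 193 and 3575 with GSK2830371 and 248, 133 and 2216 with DMSO.

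Leukocyte markers also rose against control. Of 14 neutrophil markers, 13 rose in each comparison with control (medians 5.48 with GSK2830371 and 6.08 with DMSO), led by Retnlg (5.72 with GSK2830371 and 6.96 with DMSO, adjusted p = 0.000101 and 1.91e-05). Their summed level was 630 to 23416 with GSK2830371, 1167 to 31950 with DMSO and 185 to 288 in controls, with DMSO library 1 the highest. GSK2830371 library 4, the highest in Hp and Orm1, had the lowest neutrophil sum of the i-TERTci libraries (630). Of 12 macrophage markers, 7 rose and 0 fell with GSK2830371, led by Mrc1 (2.72, adjusted p = 5.59e-05), and 7 rose and 1 fell with DMSO, led by Fcgr3 (2.40, adjusted p = 0.000106). Their sums were 16317 to 50494 in the GSK2830371 libraries, 15052 to 96972 in the DMSO libraries and 9207 to 14099 in the controls. Haptoglobin and orosomucoid are known to be made by myeloid cells and adipocytes too. The part of these cells in the rise of the acute-phase genes was not tested.

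No adipocyte marker was called higher than in the controls. Of 6 tested, 0 rose with GSK2830371 or DMSO, while 1 fell with GSK2830371 and 2 fell with DMSO, led by Lpl (-2.0 with GSK2830371 and -2.10 with DMSO, adjusted p = 0.0194 and 0.0148). Their summed level was 6925 to 90889 with GSK2830371, 9055 to 34578 with DMSO and 45839 to 123461 in controls. Among i-TERTci libraries the sum was highest in GSK2830371 library 3 (90889), and in GSK2830371 library 4 it was 37137, below every control. Lpl, at 44422 to 120569 in the controls and 5554 to 89518 with GSK2830371, made up most of that sum. Cfd, Plin1, Retn and Cidec reached 6578, 886, 408 and 1418 with GSK2830371, above every control. Their GSK2830371 medians, 106, 0.968, 1.94 and 33.5, were below the control medians of 486, 49.5, 12.1 and 103. The defining marker Adipoq read 1313 in GSK2830371 library 4, the library with the most Hp and Orm1, and at most 66.0 in any other. The part of adipocytes in the levels of these genes was not tested.

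Tubule markers were set beside 46.3% of all genes called in either direction with GSK2830371 and 48.3% with DMSO. Of 9 injured tubule markers, 6 rose and 1 fell in each comparison with control, led by Lcn2. The marker that fell was Havcr1 (Kim-1), at 1138 to 7848 with GSK2830371, 713 to 10307 with DMSO and 14048 to 23147 in controls. The sums were 83950 to 370802 with GSK2830371, 85168 to 252534 with DMSO and 35969 to 55078 in controls. Clu was a large part of them, at 53641 to 252308 with GSK2830371, 26128 to 171070 with DMSO and 12962 to 30677 in controls. Of 10 proximal tubule markers, 7 fell with GSK2830371, and 6 fell and 1 rose with DMSO, led by the organic anion transporter gene Slc22a8 (-3.07 with GSK2830371 and -2.77 with DMSO, adjusted p = 2.37e-05 and 5.01e-05). Of 5 thick ascending limb markers, 1 rose in each comparison, Cldn16 (1.76 with GSK2830371 and 1.57 with DMSO, adjusted p = 7.5e-05 and 0.000166). Of 6 collecting duct markers, 3 fell in each, led by Slc26a4 with GSK2830371 (-1.46, adjusted p = 0.00272) and by Slc4a1 with DMSO (-4.87, adjusted p = 0.000341). The collecting duct counts, 3 of 6 called, were close to those shares, and the thick ascending limb counts, 1 of 5, were not above them.

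Glomerular lists are given beside the same shares, 46.3% of all genes called with GSK2830371 and 48.3% with DMSO. Of 7 parietal epithelial cell markers, 3 rose and 1 fell with GSK2830371 and 3 rose and 2 fell with DMSO, led by Pax2, which fell (-2.32 with GSK2830371 and -2.51 with DMSO, adjusted p = 3.75e-06 and 1.8e-06). Of 6 podocyte markers, 2 fell in each, led by Wt1 (-0.93 with GSK2830371 and -1.0 with DMSO, adjusted p = 0.00533 and 0.0031). The cells that carry the acute-phase transcripts were not resolved in these whole-kidney libraries.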

How the data were processed

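Total RNA of whole kidneys was sequenced, from samples with an RNA integrity number above 7 per the labels' protocols. Per the submitters' processing notes, the tools were STAR, Trimmomatic, FastQC and DESeq2 and the build was mm10. Which counter, annotation and strand setting were used is not given in the sources used here. Deposited tables hold normalised signal, which the authors, judged from the values, had made by scaling each library's whole reads by a single factor. Whole reads were recovered for 100% of values within a tolerance of 0.001, with 0 mismatches between the tables in the 4 shared controls.

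Recovered reads of the 14 libraries were scaled by median-of-ratios size factors, and log2 was taken after adding 1. After edgeR's filterByExpr, 18810 genes entered 1 limma 3.58.1 fit (R 4.3.3) with trend and robust moderation. The count tests, edgeR 4.0.16 and DESeq2 1.42.0, called 8496 and 9118 genes with GSK2830371 against control and 8892 and 9534 with DMSO. Further alternatives changed scaling, pseudocount, filter, weights, covariate and samples. Genes were matched to GENCODE M21, and 8 of 10 members had a RefSeq promoter window. Named genes are mainly the members, the smallest p of each list in the comparisons with control and the 2 nearest profiles. Further genes, such as Alb, Cps1, Adipoq, Kap, Il6 and Stat3, were named outside these rules. Members and lists were chosen with earlier results of these data known. The fit was also tested on simulated data. Replicates are separate mice, so p-values measure the spread between mice.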

Additional observations from a re-analysis of the deposited data

Results flagged for a closer look

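In 30 sets of values (each gene in each group), the highest or lowest library was compared with its neighbours by Dixon's test, which by chance picks out about 1 in 20. It picked out 3, all among the 4 controls. Saa1 read 1.86 in control library 2 and 0 in the other controls. Saa3 read 3.01 in control library 3 and 0 in the other controls. Where all other controls are 0, any single count is picked out, so the rate of 1 in 20 does not hold for Saa1 and Saa3. Apoh read 22.1 in control library 3, above 4.64 to 5.5 in the other controls, and the same library had the most Alb (2025, against 185 to 344 in the other controls). The part of liver RNA in that Apoh value was not tested. All 3 values are under the lowest i-TERTci value of the same gene.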

How the results depend on the processing

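Leaving out 1 library at a time gave 8 to 9 called members with GSK2830371 against control and 9 to 9 with DMSO, and 7254 to 8625 and 7645 to 9108 genes in those comparisons. Voom weights gave 5 called members with GSK2830371 and 7 with DMSO, Xist as a covariate 7 and 7, Xist-positive libraries 9 and 6, and 31 days or fewer 7 and 9. The genes called changed as well, from 8716 with GSK2830371 and 9079 with DMSO to 7595 and 6803 with Xist as a covariate. Over all alternatives they ran from 7244 to 9867 with GSK2830371 and from 6124 to 10253 with DMSO. Between the treatments, DESeq2 called 1 gene and Xist-positive libraries 2. The GSK2830371 minus DMSO log2 difference changed sign in Xist-positive libraries for Saa1 (0.76), Saa2 (1.29), Saa3 (2.81), Cp (-0.25), Fga (1.15), Fgb (1.04), Fgg (0.99) and Apoh (0.72). In those libraries treatment and days on doxycycline cannot be told apart. At 31 days or fewer the difference changed sign for Fga (0.16), Fgg (0.04) and Apoh (1.61). With 1 library left out it ran from -2.11 to 0.05 for Saa2, -1.55 to 0.66 for Saa3, -0.04 to 0.51 for Cp, -1.34 to 0.31 for Fga, -1.43 to 0.28 for Fgb, -1.39 to 0.24 for Fgg and -0.53 to 0.05 for the Fgb to Fga ratio. Orm1 with DMSO against control was -0.64 in Xist-positive libraries. For Y-positive against Xist-positive libraries, the genes called were 283 with DESeq2, 110 at 31 days or fewer, 25 in i-TERTci libraries only and 25 to 175 with 1 library left out, against 64. Members called were 3 with DESeq2 and 3 at 31 days or fewer, against 1, and Cp ran from -0.42 to 0.11 with 1 library left out. Apoh was called in every alternative run for that term. The cause of these changes was not tested.

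Same-numbered libraries correlated at -0.06 to 0.34, and the libraries were taken to share only a number. The same-numbered control was still the best match of GSK2830371 libraries 1 to 4, at 0.05 to 0.1, and of DMSO libraries 2 and 4. Between the treatments the best match had the same number for GSK2830371 libraries 1 and 2, and another number for libraries 3, 4 and 5. With a replicate block the genes called were 9248 with GSK2830371 and 9589 with DMSO against control, the members called 10 and 9, and Orm1 with GSK2830371 was 2.65 (limma adjusted p = 0.0165). For the sex marker the block gave 37 genes, Cp 0.11 and Orm1 -0.27.

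Scaling by library total moved the median log2 change of all genes to 0.34 in both comparisons with control, and the share of calls that were higher to 74.3% with GSK2830371 and 72.4% with DMSO, against 52.4% and 52.2%. The ratio tests cannot reach 0.05 with 2 libraries in a group. Fewer than 4 Saa1 or Saa3 reads and 0 Saa2 reads over all controls limit what their folds can show, and counting intervals cover counting error only.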
